A study of Homo sapiens with 4 samples.

Results

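The genes CLIP4, SYTL3, SUN3, ZNF367, ESAM, MIGA1, TMEM139, CASTOR2 and AADACP1 are 9 of the 19775 genes named on the array, and they share no pathway in their annotation. They were selected on these same arrays, as genes with some of the largest differences between cells given TET1 siRNA and cells given control siRNA, so the difference that defines them is described here and not tested. Every probe set whose single annotated symbol was one of the 9 was taken, which gave 15 of 54675 probe sets; a probe set is a group of short probes that reads 1 transcript or a few. TMEM139 and MIGA1 had 2 probe sets each, CLIP4 had 2, SYTL3 had 4, and the other 5 genes had 1 each.

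The arrays read RNA of HCT116 cells, a line grown from a human colorectal cancer. One group, TET1 siRNA (2 samples), was transfected with an siRNA against TET1, and the other, control siRNA (2 samples), with a control siRNA. Both groups went through the same lipid transfection and otherwise carry no difference that the labels give, and neither the sequence of the siRNAs nor the time of harvest is given in the sources used here. With a single TET1 siRNA group, effects of lower TET1 and other effects of that siRNA cannot be told apart. The series' design calls the 2 samples of each group biological duplicates, and how they were grown apart is not described.

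TET1 is a dioxygenase that oxidises 5-methylcytosine in DNA, mostly at CG dinucleotides, a first step towards removing the methyl group, and it also works as a scaffold for chromatin complexes. The 9 genes have separate roles: CLIP4 carries CAP-Gly domains, which bind microtubules; SYTL3 is a synaptotagmin-like effector of RAB27 GTPases in vesicle exocytosis; SUN3 is an inner nuclear membrane protein known from mouse spermatids; ZNF367 is a zinc finger transcription factor. ESAM is an immunoglobulin-type adhesion molecule of endothelial cells and platelets, MIGA1 (mitoguardin 1) promotes mitochondrial fusion at the outer membrane, TMEM139 is a small membrane protein reported to bind the anion exchanger SLC4A1, CASTOR2 is a paralogue of the arginine sensor CASTOR1 of the mTORC1 pathway, and AADACP1 is annotated as a pseudogene of AADAC, the arylacetamide deacetylase.

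TET1 acts on CG dinucleotides, and the promoters of the members differ in how many they hold, so contrasting windows are shown. RefSeq gave promoter windows of GRCh38.p14 for 6 of the 9 genes, 10 windows in all, and here the 250 bases before each annotated start are used. Over 35116 such windows of all genes the median was 11 CG dinucleotides, with quartiles of 3 and 23. The richest member window was the third start of CLIP4, with 33 CG dinucleotides (chr2:29115165-29115414, plus strand), and one of the poorer was that of SUN3, with 4 (chr7:48029108-48029357, minus strand). Both are printed 5′ to 3′ along the gene, with each CG in capitals.
CLIP4: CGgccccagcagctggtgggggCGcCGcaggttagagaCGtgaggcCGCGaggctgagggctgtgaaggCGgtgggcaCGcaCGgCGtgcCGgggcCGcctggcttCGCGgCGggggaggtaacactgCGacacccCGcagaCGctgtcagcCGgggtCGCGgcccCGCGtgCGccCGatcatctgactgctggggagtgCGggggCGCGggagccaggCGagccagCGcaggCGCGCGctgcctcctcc
SUN3: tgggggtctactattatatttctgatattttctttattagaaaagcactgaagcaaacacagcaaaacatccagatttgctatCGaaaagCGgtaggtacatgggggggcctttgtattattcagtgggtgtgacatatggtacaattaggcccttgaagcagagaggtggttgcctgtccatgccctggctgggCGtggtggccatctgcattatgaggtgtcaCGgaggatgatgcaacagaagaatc

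The other 2 starts of CLIP4 had 8 and 5 CG dinucleotides, the MIGA1 window had 12, both TMEM139 windows had 4, and those of SYTL3 had 5 and 1. ZNF367 had 30 in its single window. The windows therefore span CG-rich and CG-poor starts, and methylation was not measured in these samples. By each gene's richest window, the median was 22 CG dinucleotides over 1167 genes called higher after TET1 siRNA (limma, adjusted p below 0.05). It was 25 over 1102 genes called lower and 23 over 7837 not called. Whether CG content goes with the rise of the members was not tested. The windows were also searched on both strands for 3 motifs: an E2F-type motif TTTNNCGC, an AP-1-type motif TGANTCA and a TEAD-type motif GGAATG. The E2F-type motif stood in 5.92% of all windows, the AP-1-type in 6.57% and the TEAD-type in 11.9%; the TEAD-type letters were in none of the 10 member windows. The ZNF367 window (chr9:96418371-96418620, minus strand) held 2 E2F-type matches, both on the strand opposite to the printed one. In the printed letters they stand as the motif's reverse complement, GCGNNAAA. These are GCGCGAAA from base 216 and GCGGGAAA from base 230, counted from 1 at the window's 5′ end. The second SYTL3 window (chr6:158662697-158662946, plus strand) held 1 AP-1-type match, TGAGTCA from base 128. The matches are in capitals, and they describe the letters only.
ZNF367: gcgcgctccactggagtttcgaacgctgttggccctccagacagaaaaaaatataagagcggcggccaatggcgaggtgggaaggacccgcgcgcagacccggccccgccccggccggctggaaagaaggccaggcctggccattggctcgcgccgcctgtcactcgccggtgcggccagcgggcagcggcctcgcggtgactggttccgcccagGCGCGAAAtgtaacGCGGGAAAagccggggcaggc
SYTL3: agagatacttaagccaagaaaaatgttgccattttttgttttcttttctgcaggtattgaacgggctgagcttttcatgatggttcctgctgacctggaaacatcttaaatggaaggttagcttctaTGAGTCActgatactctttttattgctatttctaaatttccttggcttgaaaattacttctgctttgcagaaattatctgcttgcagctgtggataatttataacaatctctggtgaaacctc

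The targeted transcript checked the labels. TET1 read 14.6 and 15 on the TET1 siRNA arrays, against 58.1 and 59.6 on the control siRNA arrays, so 25.1% of its mean signal was left (log2 difference -1.28, limma adjusted p = 9.69e-04), and its dimmer probe set differed by -0.84. After TET1 siRNA the brighter TET1 probe set stood near the array medians, at percentile 51.7 of all probe sets. The share of transcript left is therefore uncertain. Values are signals in arbitrary units on a linear scale, scaled by the authors to 1 trimmed mean per array. Log2 differences are TET1 siRNA minus control siRNA on log2(signal + 16), which understates the change of dim genes. Array medians were 13.9 and 14.4 after TET1 siRNA and 14.3 and 15.5 after control siRNA. Across all genes tested the arrays of a group correlated at 0.991 (TET1 siRNA) and 0.990 (control siRNA), and arrays of different groups at 0.975 to 0.977. Among 12389 genes tested with limma, 1393 (11.2%) were called higher and 1316 (10.6%) lower after TET1 siRNA at an adjusted p below 0.05, so changes were widespread. Of 10 colorectal epithelial markers, 7 were tested, and CDX1, CDX2 and GPA33 were too dim to be tested. KRT8 was called higher (0.32, and 0.23 without TET1 siRNA replicate 2), but not when genes of low signal were also tested. CDH1, which encodes E-cadherin, was called lower (-1.16). The signal summed over all 10 markers was 19814 on both TET1 siRNA arrays, against 17752 and 18451 on the control siRNA arrays. KRT18, KRT19, EPCAM and KRT8 added the largest part of it. RNA was bulk, so fewer cells of a type and less RNA per cell cannot be told apart.

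Each of the 9 genes was higher on both TET1 siRNA arrays than on either control siRNA array by its brightest probe set, and their log2 differences ran between 1.36 and 2.32 with a median of 1.51, beside a median of 0.01 over all genes tested. Of the 15 probe sets, 12 passed the filter on low signal, and 12 of 12 had non-overlapping groups with TET1 siRNA higher. Over all 27306 probe sets that passed, 27.3% were arranged in that way; since the members were chosen on this contrast, the comparison of the shares carries no weight. The 3 probe sets under the filter all belong to SYTL3. By log2 difference, AADACP1 ranked 2nd and CASTOR2 15th among all genes tested.

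**Figure D1:**
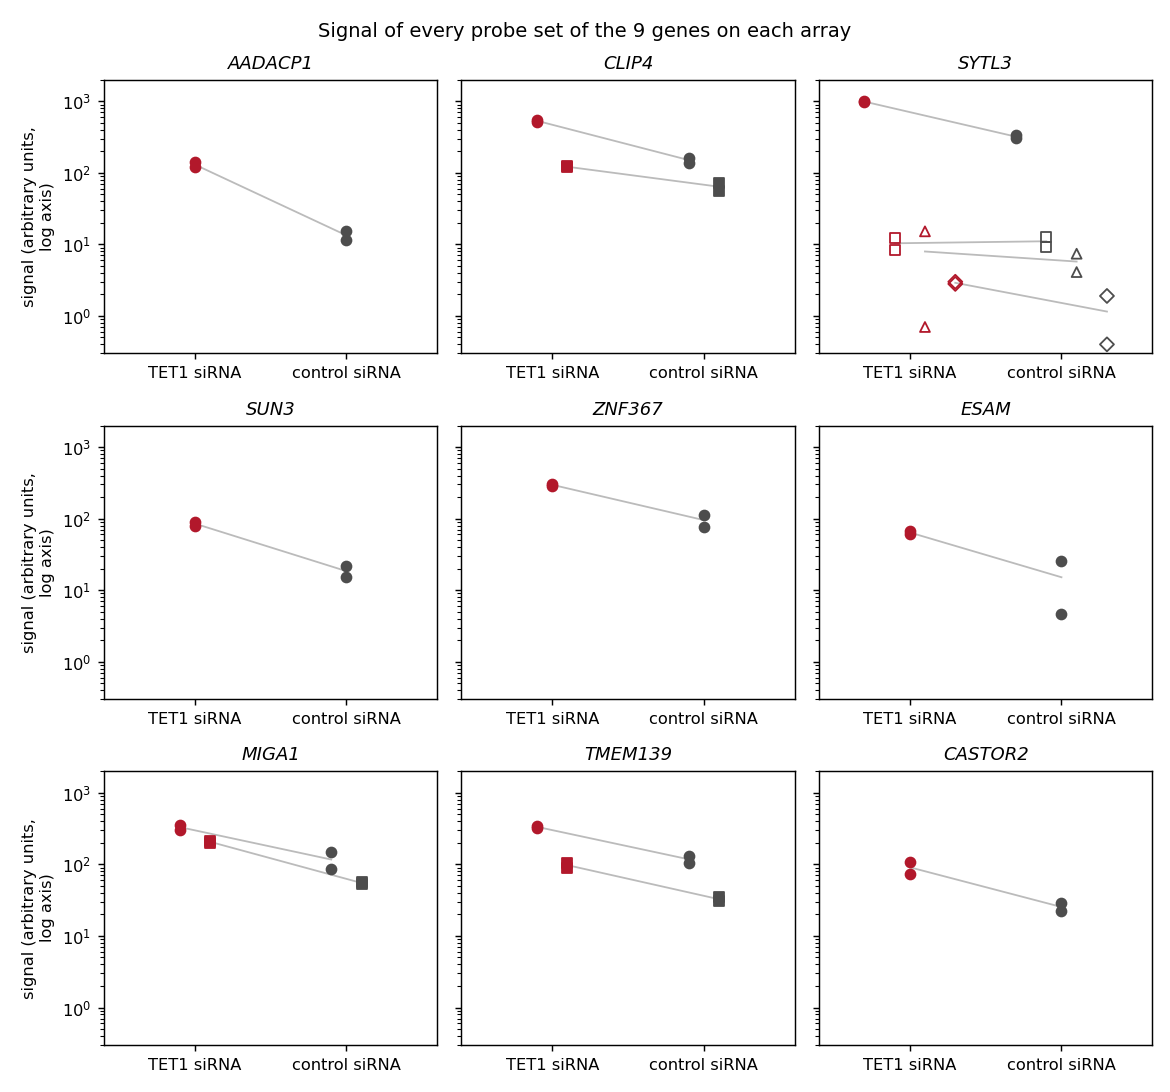
Signal (arbitrary units, log axis) of all 15 probe sets of the 9 genes on the 2 TET1 siRNA arrays (red, left) and the 2 control siRNA arrays (grey, right). Each point is 1 array, each shape 1 probe set, open shapes are probe sets under the filter on low signal, and lines join the group means; in the 12 filled probe sets both red points lie above both grey points.

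CLIP4 was among the brighter members. Its brighter probe set (226425_at) read 549.3 and 516.5 after TET1 siRNA, against 163.2 and 138.1 after control siRNA, means of 532.9 ± 23.2 and 150.7 ± 17.7 (SD, n = 2 each). The groups were apart by far more than their spread, and the TET1 siRNA mean was 3.54 times the control siRNA mean (log2 difference 1.72, SE 0.12 from the spread between arrays). The second CLIP4 probe set (219944_at) read 119.3 and 123.7 after TET1 siRNA, against 71.6 and 56.2 after control siRNA, a ratio of 1.90. Both probe sets point the same way, and they differ in size, with log2 differences of 1.72 and 0.79. Of 15 tested genes listed for CAP-Gly proteins or proteins of microtubule plus ends, 1 was called higher and 3 lower, with a median of 0.05. CLIP1, the linker protein CLIP-170, differed by -0.06 (adjusted p = 0.773) and CLIP2 by 0.33 (adjusted p = 0.249), and CLIP3 was under the filter. CLASP2, which stabilises microtubule plus ends, read 112.4 and 122.1 after TET1 siRNA, against 187.5 and 188.8 after control siRNA (-0.62, limma adjusted p = 0.00373); over the mean of its probe sets the difference was -0.33 and not called. MAPRE1, the end-binding protein EB1, was lower by -0.36 (adjusted p = 0.00288). Its relative MAPRE2 differed by -0.40 and CLASP1 by 0.50, calls that ended for both without either TET1 siRNA array, for MAPRE2 also without control siRNA replicate 1 (adjusted p = 0.061 to 0.142) and for CLASP1 without control siRNA replicate 2 (adjusted p = 0.0655 to 0.139).

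SYTL3 had the highest signal of the 9 genes. Probe set 238423_at read 966.6 and 1014.2 after TET1 siRNA, against 334.5 and 305.4 after control siRNA, means of 990.4 ± 33.7 and 320.0 ± 20.6 (SD, n = 2 each). Its spread was small, and the ratio of means was 3.10 (log2 difference 1.58, SE 0.07). The other 3 probe sets annotated to SYTL3 were dim in every sample: 236864_at read 12.3 and 8.4 against 9.3 and 12.8, 1561882_at read 0.7 and 15.2 against 4.1 and 7.4, and 1562255_at read 2.8 and 3 against 0.4 and 1.9, TET1 siRNA arrays before control siRNA arrays in each pair. Their log2 differences lay between -0.04 and 0.14, so the SYTL3 difference rests on 1 probe set, and the mean over all 4 was 0.44. Among 16 tested genes of RAB27 effectors and regulated exocytosis, 3 were called higher and 1 lower (1 to 3 and 0 with 1 array left out), with a median of 0.14. SYTL2, a close relative that also binds RAB27, read 148.2 and 128.9 after TET1 siRNA, against 79.8 and 72.8 after control siRNA (0.74, limma adjusted p = 0.00326; 0.34 and not called over the mean of its probe sets). SYTL1 read 259 and 275.7 after TET1 siRNA, against 188.7 and 189.7 after control siRNA (0.46, adjusted p = 0.0085; adjusted p = 0.0761 without TET1 siRNA replicate 2). SYTL4 (-0.03, adjusted p = 0.938) and SYTL5 (0.15, adjusted p = 0.715) did not pass. RPH3AL (-0.67), a RAB effector of secretion, and RAB3B (0.44), a GTPase of regulated exocytosis, passed with all 4 arrays but lost the call when any 1 array was left out, with adjusted p-values of 0.0643 to 0.174 for RPH3AL and 0.0594 to 0.192 for RAB3B. Lymphocyte markers, 7 on the array, were dim throughout, with summed signals of 79.5 and 90.7 after TET1 siRNA and 67.5 and 80.7 after control siRNA, and the 2 tested were not called (none at an unadjusted p below 0.05 with limma).

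SUN3 was dim after control siRNA. Its only probe set (231618_s_at) read 90.8 and 79.7 after TET1 siRNA, against 21.6 and 15.3 after control siRNA, means of 85.3 ± 7.85 and 18.5 ± 4.45 (SD, n = 2 each). The ratio was 4.62 (log2 difference 1.56, SE 0.15), and the control siRNA mean stood at percentile 55 of all probe sets, so the fold depends on signal near the dim end. The suffix of the probe set marks probes that can hybridise to more than one transcript. SUN proteins pair with nesprins to link the nuclear lamina to the cytoskeleton, and the other SUN genes did not pass: SUN1 differed by 0.11 (adjusted p = 0.397), SUN2 by 0.21 (adjusted p = 0.373), SUN5 by -0.02 (adjusted p = 0.969) and SPAG4 by -0.24 (adjusted p = 0.370). Across 20 genes of this linker complex and the nuclear envelope, 1 was called higher and 5 lower (1 and 3 to 4 with 1 array left out), with a median of -0.04. TMPO, a lamina-associated protein, read 558 and 616.3 after TET1 siRNA, against 1544.3 and 1386.9 after control siRNA (-1.30, limma adjusted p = 3.43e-06; -0.78 and still called over the mean of its probe sets). The lamin B receptor LBR read 671.4 and 677.8 after TET1 siRNA, against 1280.3 and 1477.9 after control siRNA (-1.01, adjusted p = 1.71e-05), and LMNB1, lamin B1, was lower too (-0.75, adjusted p = 0.00262). TOR1A, an ATPase of the nuclear envelope lumen, was the 1 called higher (0.70, adjusted p = 0.00179), and was at 0.32 and not called over the mean of its probe sets. Of 10 testis germ cell markers 9 lay under the lower control siRNA array median, with summed signals of 67.7 and 72.8 after TET1 siRNA and 57.2 and 91.4 after control siRNA, and the 1 tested was not called.

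ZNF367 read 308.7 and 285.1 after TET1 siRNA, against 76.4 and 114.1 after control siRNA by its only probe set (229551_x_at), means of 296.9 ± 16.7 and 95.3 ± 26.7 (SD, n = 2 each). The control siRNA arrays were the more scattered pair, and the ratio was 3.12 (log2 difference 1.51, SE 0.25). The suffix of the probe set again marks probes that can read other transcripts. ZNF367 is known from sets of E2F-regulated genes of the G1/S transition, and its window above holds 2 E2F-type matches. Of 29 other E2F targets of G1/S tested, 12 were called lower, 1 was called higher and 16 were not called, with a median of -0.28. The shares were 41.4% lower and 3.45% higher, beside 10.6% and 11.2% of all genes tested. E2F8, a repressor of the E2F family, was lower (-0.70, limma adjusted p = 0.00535; adjusted p = 0.0522 without TET1 siRNA replicate 1). MCM7, a subunit of the replicative helicase, was lower by -0.67 (adjusted p = 6.62e-04), and UHRF1, which recruits the maintenance DNA methyltransferase, by -0.66 (adjusted p = 4.13e-04). CDCA7 was lower by -0.66 (adjusted p = 0.00107), and was at -0.24 (adjusted p = 0.547) on its probe set without a suffix. PCNA, the replication clamp, named here after its values were seen, was the gene called higher (0.24, adjusted p = 0.0411), a call that ended without TET1 siRNA replicate 1, TET1 siRNA replicate 2 or control siRNA replicate 2, where its adjusted p was 0.0592 to 0.282. The number called lower depended on which array was left out, as did that over all genes tested.

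ESAM had the least certain difference of the 9. Its probe set (225369_at) read 67.5 and 60.6 after TET1 siRNA, against 4.7 and 25.6 after control siRNA, means of 64.1 ± 4.88 and 15.2 ± 14.8 (SD, n = 2 each). The groups did not overlap, but the control siRNA arrays were far apart from each other, and the ratio of 4.23 carries that spread (log2 difference 1.45, SE 0.51). Without control siRNA replicate 1 the log2 difference was 0.94, and without control siRNA replicate 2 it was 1.95. Of 17 JAM-type adhesion molecules and partners, 15 were on the array and 7 passed the filter. TJP1, the tight junction scaffold ZO-1, read 1876.8 and 1723.8 after TET1 siRNA, against 1268.5 and 1278.9 after control siRNA (0.49, limma adjusted p = 5.76e-04) and was the 1 of 7 called. JAM2 and JAM3 were under the filter, and the median of the 7 was 0.10. The antisense gene ESAM-AS1, annotated beside ESAM, read 19.6 and 12.5 after TET1 siRNA, against 7.5 and 20.4 after control siRNA (0.12, adjusted p = 0.819). ESAM is known as an endothelial gene, and 8 of 11 endothelial markers lay under the lower control siRNA array median. CDH5 read 3.6 and 2.3 after TET1 siRNA, against 1.4 and 6.7 after control siRNA, and VWF read 3.8 and 1.2 after TET1 siRNA, against 8.4 and 4.3 after control siRNA. EGFL7, the brightest, read 80.5 and 91.4 after TET1 siRNA, against 128.5 and 107.1 after control siRNA, and ROBO4 read 18.2 and 32.8 after TET1 siRNA, against 23.6 and 10 after control siRNA. Over the 11 markers the summed signal, to which EGFL7 added the largest part, was 167.9 and 169.7 after TET1 siRNA and 211.2 and 194.8 after control siRNA, and of 3 tested with limma 0 were called (1 at an unadjusted p below 0.05).

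MIGA1 showed the difference on both of its probe sets. The brighter (235125_x_at) read 359.1 and 306.5 after TET1 siRNA, against 147.1 and 86.9 after control siRNA, means of 332.8 ± 37.2 and 117.0 ± 42.6 (SD, n = 2 each) and a ratio of 2.84 (log2 difference 1.42, SE 0.35). The dimmer (243042_at), whose name carries no suffix for shared probes, read 214.7 and 200.1 after TET1 siRNA, against 53.2 and 56.8 after control siRNA, a ratio of 3.77 (1.65, SE 0.06). The second is the tighter measurement, and the 2 differences lie within 1 SE of the first. The paralogue MIGA2 read 47.4 and 34.1 after TET1 siRNA, against 39.1 and 32.2 after control siRNA (0.13, limma adjusted p = 0.723). Of 16 tested genes of mitochondrial fusion and fission, 4 were called higher and 2 lower, with a median of -0.05. SLC25A46, an outer membrane protein that affects fusion and fission, read 740.8 and 788.8 after TET1 siRNA, against 475.7 and 523.4 after control siRNA (0.60, adjusted p = 5.45e-04). The mitofusins that carry out outer membrane fusion went opposite ways, MFN1 at 0.31 (adjusted p = 0.0184) and MFN2 at -0.42 (adjusted p = 0.0219), and the fission receptor MFF was at -0.30 (adjusted p = 0.0165). MFF lost its call with any 1 array left out (adjusted p = 0.0502 to 0.109), and MFN1 (0.0836 to 0.0997) and MFN2 (0.0548 to 0.168) lost theirs without either TET1 siRNA array or control siRNA replicate 2. With 1 array left out, 1 to 3 genes of this list were called higher and 0 to 1 lower.

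TMEM139 was also higher on 2 probe sets of much the same size. The brighter (227753_at) read 346.1 and 323.4 after TET1 siRNA, against 129.5 and 106.1 after control siRNA, means of 334.8 ± 16.1 and 117.8 ± 16.5 (SD, n = 2 each) and a ratio of 2.84 (log2 difference 1.40, SE 0.13). The dimmer (229634_at) read 89.8 and 105.5 after TET1 siRNA, against 30.7 and 34.5 after control siRNA, a ratio of 3.00 (1.22, SE 0.11). In both the groups lay far outside each other's range. TMEM139 lies beside CASP2, which encodes caspase 2, and an antisense gene is annotated with it; all 7 probe sets of CASP2 differed by -0.04 to 0.11. The bicarbonate transporters of the SLC4 family, which include its reported partner, had 6 genes above the filter, of which SLC4A7 alone was called (930 and 685.9 after TET1 siRNA, against 500.9 and 444.1 after control siRNA; 0.74, limma adjusted p = 0.00158; 0.15 and not called on the probe set without a suffix). The partner SLC4A1 was itself under the filter, the list's median was -0.03, and erythroid markers, 4 on the array, summed to 49.7 and 62.7 after TET1 siRNA and 52.2 and 61.7 after control siRNA, the 1 tested not called.

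CASTOR2 read 72.6 and 109.8 after TET1 siRNA, against 28.8 and 22 after control siRNA (225906_at), means of 91.2 ± 26.3 and 25.4 ± 4.81 (SD, n = 2 each). Here the TET1 siRNA arrays were the scattered pair, and the ratio was 3.59 (log2 difference 1.36, SE 0.28). CASTOR2 has near-identical copies on its chromosome, and how they share the probes was not tested. Its paralogue CASTOR1, which frees mTORC1 from inhibition when it binds arginine, read 86.9 and 68.6 after TET1 siRNA, against 87.5 and 76.3 after control siRNA (-0.07, limma adjusted p = 0.825). Both proteins inhibit GATOR2, an activator of the amino acid branch of mTORC1. Of 37 tested genes of that branch, 5 were called higher and 4 lower, shares of 13.5% and 10.8%, with a median of 0.04 (3 to 7 higher and 2 to 3 lower with 1 array left out). MTOR, the kinase, read 15.6 and 15.8 after TET1 siRNA, against 47.1 and 43.3 after control siRNA (-0.95, adjusted p = 0.00754), and the mean of its probe sets was at -0.39 and not called. WDR24, a GATOR2 subunit, read 58.3 and 58.1 after TET1 siRNA, against 26.6 and 24.5 after control siRNA (0.84, adjusted p = 0.00826; 0.0559 and 0.0556 without either TET1 siRNA array). The leucine-pathway sestrin SESN3 was at -0.70 (adjusted p = 0.00203) and the lysosomal anchor LAMTOR3 at 0.59 (adjusted p = 4.00e-04); over the mean of their probe sets neither was called, at -0.31 and 0.32.

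AADACP1 had the highest ratio of the 9. Its probe set (1569582_at) read 141.5 and 119.6 after TET1 siRNA, against 15.2 and 11.5 after control siRNA, means of 130.6 ± 15.5 and 13.4 ± 2.62 (SD, n = 2 each). The mean after control siRNA lay below the median of either control siRNA array, and that after TET1 siRNA stood at percentile 80.1 of all probe sets. The ratio was 9.78 (log2 difference 2.32, SE 0.14), though a ratio to so low a signal depends on the unstated background step. AADAC, the gene next to it, read 155.4 and 172.7 after TET1 siRNA, against 60 and 57.5 after control siRNA (1.27, limma adjusted p = 1.01e-04), and was called under each of 15 moderated alternatives. Whether transcripts of AADAC reach the AADACP1 probes was not tested. AADACL2, on the other side, was under the filter. Of 11 genes listed as AADAC family and carboxylesterases, 8 were on the array and 4 tested. Of these 4, 3 were called higher (75%, beside 11.2% of all genes tested), with a median of 0.68. The 3 are AADAC, NCEH1 and ABHD2, so the share rests on few genes. The 4 under the filter differed the other way on dim signal: LIPE (-0.91), CES1 (-0.52), AADACL2 (-0.38) and CES4A (-0.04). NCEH1, a cholesterol ester hydrolase of the AADAC family, read 286.7 and 278.1 after TET1 siRNA, against 121.6 and 146.3 after control siRNA (1.00, adjusted p = 1.74e-04). ABHD2, a hydrolase outside the AADAC family, was at 0.36 (adjusted p = 0.0472), and its adjusted p was 0.115 to 0.214 when any 1 array was left out. AADAC is known as a liver and intestine enzyme; of 8 hepatocyte markers 7 lay under the lower control siRNA array median, summing to 162.3 and 123.8 after TET1 siRNA and 148.2 and 144.3 after control siRNA, and the 2 tested were not called (none at an unadjusted p below 0.05). Of 7 fibroblast markers 2 were tested, and COL1A1, named after its values were seen, was called higher (0.47, adjusted p = 0.0242); over the mean of its probe sets it was at -0.07 (adjusted p = 0.817), and without TET1 siRNA replicate 2 at 0.27 (adjusted p = 0.227).

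**Figure D2:**
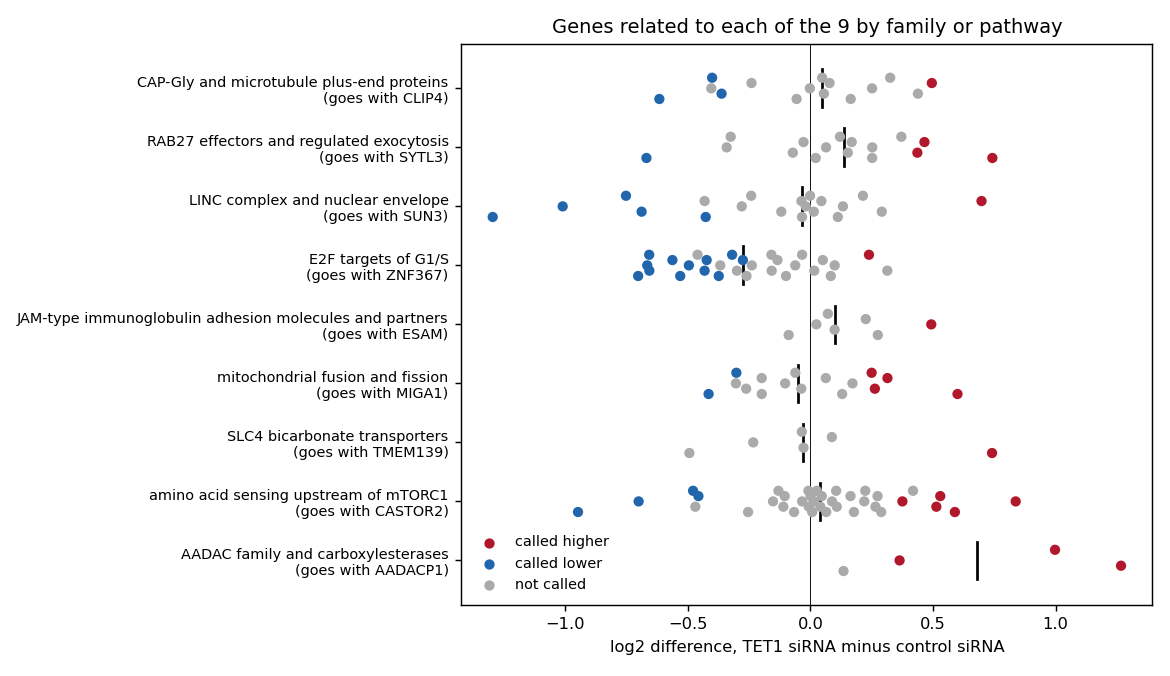
Log2 difference (TET1 siRNA minus control siRNA) of the tested genes in the 9 lists related to the members by family or pathway, 1 list a row. Points are genes, red where limma called them higher, blue lower and grey not called, and black bars mark list medians, which run between -0.28 for the E2F targets and 0.68 for the 4 esterases.

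Over all 9 lists, 150 of 180 related genes were tested, and 20 were called higher (13.3%) and 27 lower (18.0%), beside 11.2% and 10.6% of all genes tested. Their median was -0.002, beside 0.01 over all genes tested. Calls among the relatives thus went both ways, and 12 of the 27 lower were E2F targets of G1/S, 41.4% of that list's 29. The counts were 12 higher and 14 lower when TET1 siRNA replicate 1 was left out, 11 and 19 when TET1 siRNA replicate 2 was left out, and 17 and 16 when control siRNA replicate 2 was left out.

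The order of the 9 by log2 difference was AADACP1, CLIP4, SYTL3, SUN3, ZNF367, ESAM, MIGA1, TMEM139 and CASTOR2. AADACP1 exceeded CLIP4 by 0.60 (SE 0.18) and CLIP4 exceeded SYTL3 by 0.14 (SE 0.14). The other 6 neighbouring pairs in the order differed by less than 1 SE, and CLIP4 and SYTL3 by about 1 SE. From CLIP4 down the order of neighbours is therefore not resolved. It also depends on the pseudocount, since 4 of the 9 had a control siRNA mean under 30. With a pseudocount of 1 the order opened with AADACP1 (3.20), ESAM (2.40) and SUN3 (2.16) and closed with TMEM139 (1.51). With a pseudocount of 64 it opened with CLIP4 (1.48), SYTL3 (1.46) and AADACP1 (1.33) and closed with ESAM (0.71). SYTL3, CLIP4, MIGA1, TMEM139 and ZNF367, which were brighter, moved least with the pseudocount.

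**Figure D3:**
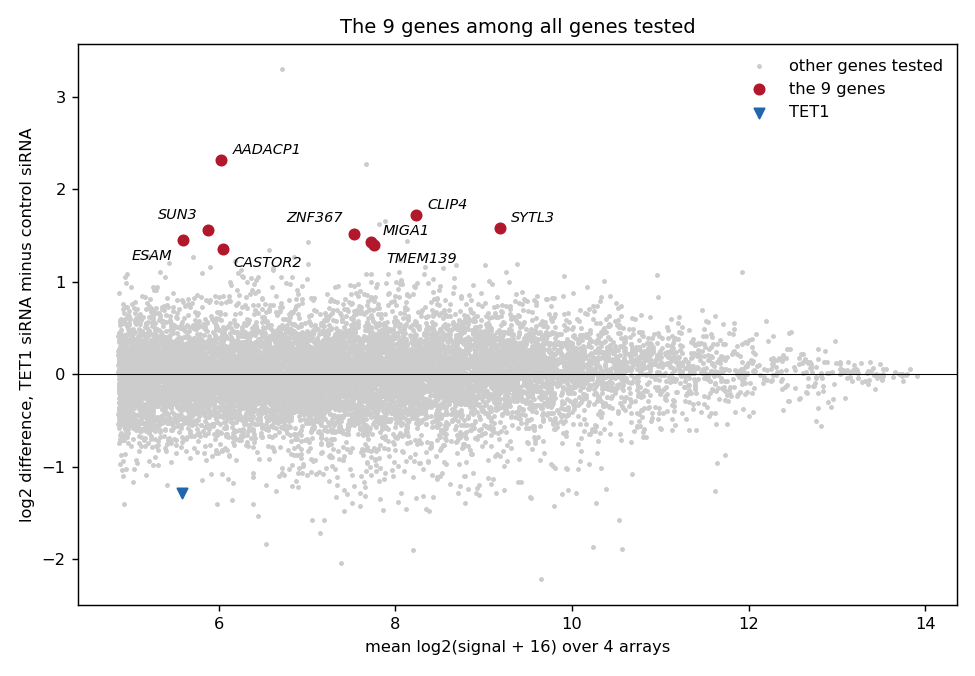
Log2 difference (TET1 siRNA minus control siRNA) against mean log2(signal + 16) over the 4 arrays for all 12389 genes tested (grey), the 9 genes (red) and TET1 (blue). The 9 lie between 1.36 and 2.32, 4 of them at the dim end and SYTL3 at the highest signal, with TET1 at -1.28.

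**Figure D4:**
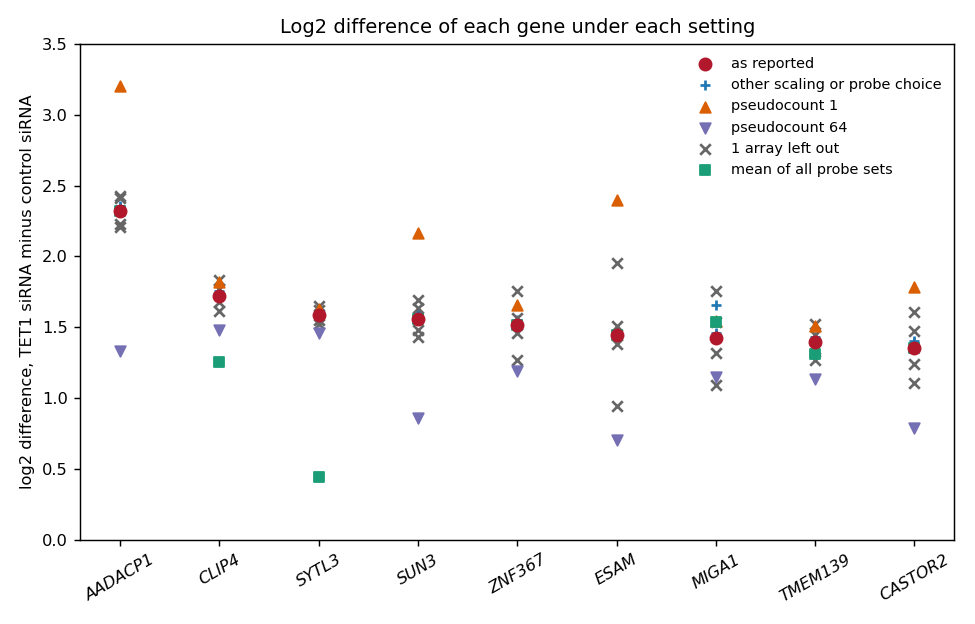
Log2 difference (TET1 siRNA minus control siRNA) of each of the 9 genes as reported (red) and under other scalings or choices of probe set, pseudocounts of 1 and 64, the mean of all probe sets and with 1 array left out. Every value is above 0; the lowest is 0.44 for SYTL3 over the mean of all its probe sets, and ESAM spans 0.94 to 1.95 when 1 array is left out.

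The ranks around the members show where the choice stops. CCN2, a secreted matrix protein and target of the coactivator YAP, ranked 1st at 3.29. It read 346.3 and 281.7 after TET1 siRNA, against 18.9 and 16.2 after control siRNA. CCN1, COL12A1, AMOTL2, CRIM1 and SAMD9 stood between the members. CASTOR2 at rank 15 (1.36) was the last member, and THBS1, which encodes thrombospondin 1, followed at rank 16 (1.35) with 139.7 and 131 after TET1 siRNA, against 49.1 and 38.4 after control siRNA. The difference of 0.01 between CASTOR2 and THBS1 is far below the SE of CASTOR2. By Euclidean distance over the 4 arrays, the profiles nearest to the members' median profile were those of AMOTL2 (0.127), CRIM1 (0.166) and COL12A1 (0.214). The profile holds the contrast on which the members were chosen, so genes with differences of like size come out nearest. The members themselves lay between 0.111 (SUN3) and 0.808 (ESAM) from it. AMOTL2, an angiomotin that binds YAP, read 383.2 and 372.4 after TET1 siRNA, against 112.3 and 111.6 after control siRNA.

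Along the chromosome, the 3 nearest genes with a probe set on either side of each member made 54 neighbours, of which 29 were tested. Among them 7 were called higher (24.1%) and 2 lower (6.90%), beside 11.2% and 10.6% of all genes tested, with a median of 0.06. With 1 array left out, 5 to 6 were called higher and 0 to 3 lower. AADAC was the strongest, and MBNL1, a splicing regulator, stood 3 places from AADACP1 (0.50, limma adjusted p = 6.84e-04; 0.43 with adjusted p = 0.0874 on its probe set without a suffix). UPP1, uridine phosphorylase 1, stood 2 places from SUN3 and read 108.4 and 97 after TET1 siRNA, against 51.7 and 37.8 after control siRNA (0.97, adjusted p = 0.00204). MSANTD2, 2 places from ESAM, was at 0.51 (adjusted p = 0.0471), and its call stood only without TET1 siRNA replicate 1 among the leave-outs of 1 array (adjusted p = 0.043, against 0.0804 to 0.339 for the others). The other 5 called are named here after their values were seen. EZR (0.49) and DYNLT1 (0.43) flanked SYTL3 and were called with each array left out, but EZR was at 0.31 (adjusted p = 0.154) on its probe set without a suffix. USP33 (0.28), beside MIGA1, lost its call without either TET1 siRNA array or control siRNA replicate 2 (adjusted p = 0.118 to 0.183). SLC35D2 and HABP4 flanked ZNF367, both at -0.43, opposite to it. Without control siRNA replicate 2 their adjusted p-values were 0.0701 and 0.268, HABP4 was not called without either TET1 siRNA array either, and its probe set without a suffix was at 0.07. SLC35D2 was at -0.12 (adjusted p = 0.512) over the mean of its probe sets. No gene called stood among the tested neighbours of CLIP4, TMEM139 or CASTOR2.

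**Figure D5:**
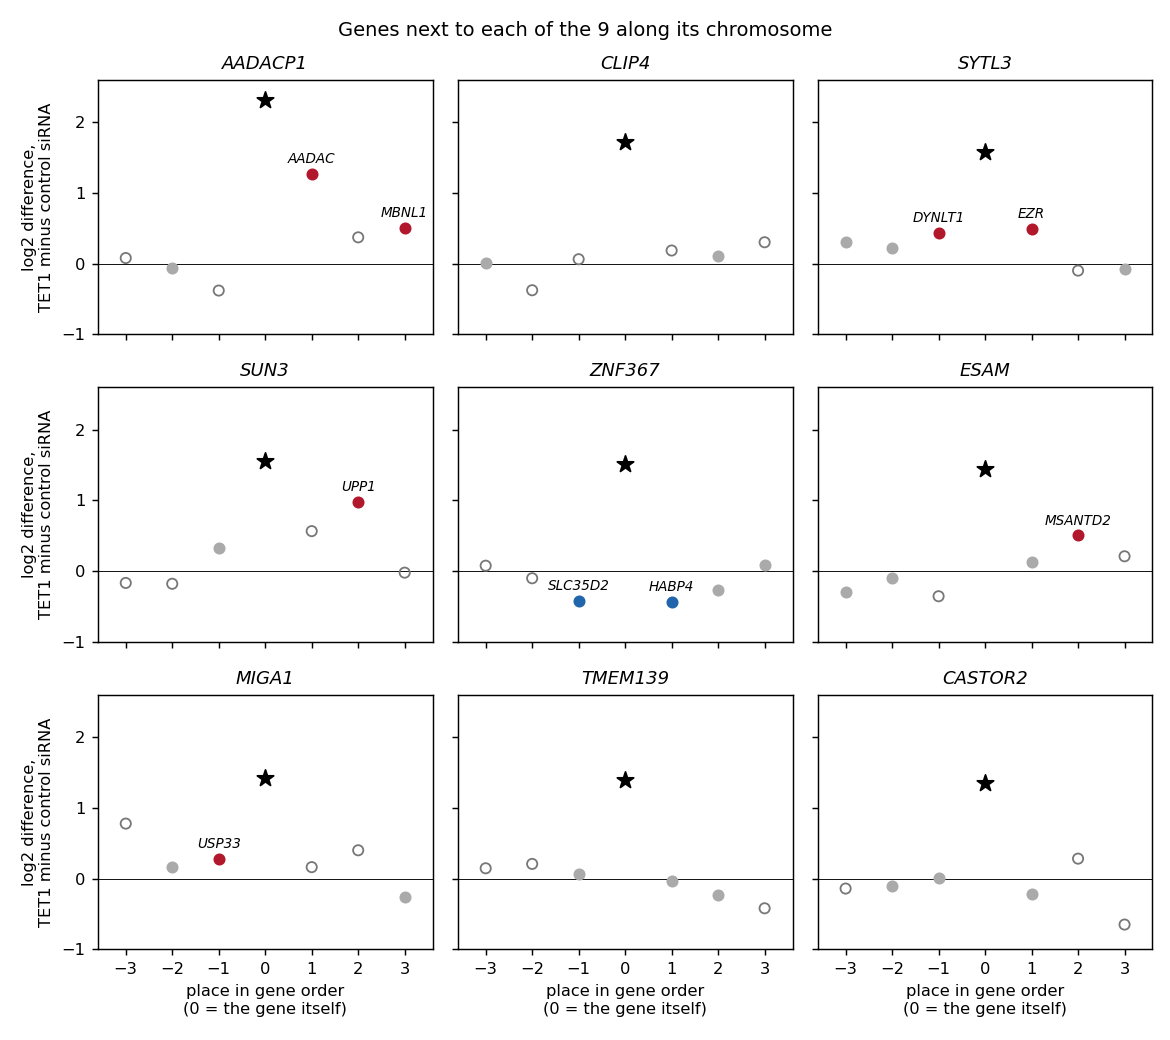
Log2 difference (TET1 siRNA minus control siRNA) of each of the 9 genes (star, place 0) and of the 3 nearest genes with a probe set on either side, by place in RefSeq gene order. Filled circles were tested (red called higher, blue called lower, grey not called) and open circles were under the filter; the 9 named circles are the genes called.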

How the data were processed

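RNA of HCT116 cells given TET1 siRNA (2 samples) or control siRNA (2 samples) was hybridised to 1 Affymetrix array each, after oligo(dT) priming per the labels' protocols. The authors deposited linear intensity values, 1 per probe set, and the mean of each array without its top and bottom 2% was the same (100.01). Which software and background step made them is not given in the sources used here. Detection calls were not used, so folds of dim probe sets are uncertain. Array scaling hides any change in total mRNA. The number of arrays limits the precision.

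The members, the lists of related genes and markers, and the tests were chosen with earlier results of these data known. Of 54675 probe sets, 62 controls were left out; 41091 had 1 gene symbol, 1801 several and 11721 none, and 41037 matched the RefSeq table (GRCh38.p14), which gave symbols, gene order and promoters. A gene was its probe set of highest mean signal, tested where its mean log2(signal + 16) was above the median of all probe sets (4.86, a signal of 13.1). Tests used limma 3.58.1 in R 4.3.3 (lmFit, eBayes with trend, two-sided, Benjamini-Hochberg over 12389 genes, threshold 0.05). The fit has 2 residual and 9.24 prior degrees of freedom. It was also run on simulated data, with spreads drawn from limma's own fitted prior, so this cannot show whether that model holds here. Recovery was 62% at a log2 change of 0.5, 84% at 1, 100% at 2 and 72% at -1, with 11 false of 170 calls. The smallest p of an exact permutation test at 2 against 2 is 0.333. Members got no test. Named genes are the members, TET1, up to 4 called genes by size in each list and among neighbours, those around the members in rank, and the 3 nearest in profile. Paralogues and other genes were named for comparison.

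The alternatives changed the scaling (quantile normalization or median centring), the pseudocount (1 or 64), the variance model (no trend, or no moderation), the filter, the choice of probe set and the threshold (0.01). Others took the replicate number as a block or left out 1 array.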

Additional observations from a re-analysis of the deposited data

How the results depend on the processing

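Of 88 values of single members under the alternatives, 74 moved by less than the replicate spread, 14 by more and 0 changed sign. Leaving out 1 array cannot move a member by more than this spread, and some choices of probe set left a member as it was. Such values count among the 74 by construction, so the 74 is no measure of stability. The members' median was 1.79 with a pseudocount of 1, 1.15 with 64, and 1.48 to 1.65 with 1 array left out. Counts of all genes called were 442 higher and 542 lower without a trend, 905 and 854 without a filter, 772 higher over the mean of probe sets, 847 and 875 on probe sets without a suffix, 751 and 731 at a threshold of 0.01, and 756 to 1185 higher and 813 to 979 lower with 1 array left out. Counts of related genes were 8 higher and 10 lower without a trend, 13 higher without a filter, 10 and 16 over the mean of probe sets, 10 and 12 without suffixes, 12 and 15 at 0.01, and 11 to 18 higher and 14 to 22 lower with 1 array left out. limma without moderation called 0 genes in either direction, 0 of them related, though 2679 genes and 40 related genes had an unadjusted p below 0.05. TET1 there was at -1.28 with an adjusted p of 0.0964, and it ran between -1.92 and -0.64 elsewhere, past the threshold wherever it was tested; with 1 array left out it was at -1.30 to -1.27. It had no value under the upper-quartile filter.

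With the replicate number as a block, 1442 genes were higher and 1349 lower, and 19 related genes were higher and 27 lower. Deviations of arrays with the same number correlated at 0.0055 over genes, so no broad shift shared by number was seen. Whether samples of the same number were grown or handled together is not described. SUN3 and ZNF367 have no probe set without a suffix. Signal over background limits the 4 members that were dim after control siRNA.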
